A study of Mus musculus with 6 samples.

Results

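Messenger RNA of the enzymes and binding proteins of DNA methylation was measured in mouse embryonic stem cells, which are pluripotent cells of the early embryo. The genes in question are Dnmt1, Dnmt3a, Dnmt3b, Mbd1, Mbd2, Mbd3, Mbd4, Hells and Uhrf1, 9 in all, and probe sets were taken where the platform annotation lists one of them. Of the 12488 probe sets on each array, 10 met that rule, and they stand for 8 of the 9 genes. Dnmt1 and Dnmt3a have 2 probe sets each and the other 6 genes have 1. No probe set is listed with Dnmt3b, so it was not analysed here. No probe set is listed with one of these genes together with another gene.

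The study compared null line 1 and null line 2, which both lack the linker histones H1c, H1d and H1e (triple null), with wild-type cells. Each of the 3 lines was measured on 2 arrays of total RNA from exponentially growing cells, 6 arrays in all. Linker histones bind the nucleosome and the DNA next to it, and the comparison asks which genes respond to their loss. The sources used here give no strain, passage or clonal origin of the lines and do not mention feeder cells. They also do not tell whether a second array stands for a second culture. In the fit used here a p-value therefore covers only the spread between the 2 arrays of a line, pooled over the 3 lines. Part or all of that spread may be technical, and the spread between lines is not in it. With 1 wild-type line, a difference between lines cannot be told apart from an effect of the H1 loss.

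Signals are given in intensity units, as the authors deposited them. Array medians ran between 34.1 and 39.5, and the highest of 19 bacterial and yeast control probe sets, used here as the background, between 9.1 and 17.2. H1f2, the gene of H1c, averaged 12.5 ± 1.51 in the null arrays (SD, n = 4) and 69.1 ± 1.27 in the wild-type arrays (SD, n = 2). It fell in the null arrays (limma adjusted p = 0.00119). Of these, 2 of 4 were above background for it, so the fitted log2 difference of -2.27 rests in part on signal at background and may understate the change. The probe sets of H1f3 and H1f4, the genes of H1d and H1e, were above background on no array and check nothing. All 13 embryonic stem cell markers looked at were above background on all 6 arrays, among them Pou5f1, Sox2 and Nanog. Their summed signal lay between 9023.3 and 9873.3 on the null arrays and between 8425.0 and 8601.9 on the wild-type arrays.

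DNA methylation in mammals is placed mainly on cytosine followed by guanine, the CpG pair. De novo methyltransferases write the mark on unmethylated DNA, and a maintenance methyltransferase copies it to the new strand after each replication. Proteins with a methyl-CpG binding domain read the mark and bring in corepressors or repair enzymes. Embryonic stem cells hold much of the machinery at high levels and survive without the methyltransferases, which is why they are a common system for its study.

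Among the 8 genes on the array, 3 serve maintenance: Dnmt1, Uhrf1 and Hells. Bases before their transcription starts are shown because these 3 genes act at replicating DNA. Each window shown holds 1 of 4 words that factors of the E2F family, regulators of S phase genes, are known to bind. The words searched, on both strands, were TTTCCCGC, TTTCGCGC, TTTGCCGC and TTTGGCGC. The sequences are RefSeq's (GRCm38.p6), 250 bases before a listed start, 5′ to 3′ on the strand of the gene, with the word in capitals. For Dnmt1, with 3 listed starts, and Uhrf1, with 2, the window shown is the one that holds a word. In both it is before the start furthest downstream and lies after the other listed starts. It may thus be transcribed from those starts, and the windows before them hold no word.
Dnmt1, chr9:20952624-20952873, minus strand: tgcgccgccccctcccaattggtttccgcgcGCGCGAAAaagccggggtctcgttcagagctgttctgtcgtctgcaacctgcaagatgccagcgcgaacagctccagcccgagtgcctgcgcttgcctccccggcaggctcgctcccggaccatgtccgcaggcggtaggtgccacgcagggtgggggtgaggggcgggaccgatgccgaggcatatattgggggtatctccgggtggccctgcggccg
Uhrf1, chr17:56304063-56304312, plus strand: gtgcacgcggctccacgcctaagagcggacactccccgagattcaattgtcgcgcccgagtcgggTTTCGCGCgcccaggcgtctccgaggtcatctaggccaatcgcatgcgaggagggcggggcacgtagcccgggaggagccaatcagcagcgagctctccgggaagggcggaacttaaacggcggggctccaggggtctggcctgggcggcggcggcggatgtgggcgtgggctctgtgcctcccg
Hells, chr19:38930740-38930989, plus strand: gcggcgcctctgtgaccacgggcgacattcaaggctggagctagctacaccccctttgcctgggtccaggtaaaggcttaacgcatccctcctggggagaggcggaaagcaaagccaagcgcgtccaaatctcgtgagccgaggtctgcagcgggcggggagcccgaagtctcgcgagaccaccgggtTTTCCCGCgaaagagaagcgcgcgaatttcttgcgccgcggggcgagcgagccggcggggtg
The word begins 219 bases before the Dnmt1 start furthest downstream (read on the opposite strand), 185 before that of Uhrf1 and 62 before the Hells start. No word overlaps another. A word of this kind is found in 1.86% of the 32851 windows of the same length in the table. Every word searched holds a CpG pair. The windows shown for Dnmt1, Uhrf1 and Hells hold 26, 30 and 28 such pairs, against a median of 6 over all windows. That share is therefore not a like comparison, and enrichment of the words was not tested. Windows were read for 6 of the 8 genes, and Mbd1 and Mbd2 were left out of this search. Among the 11 windows of those 6 genes, these 3 hold a word. Whether the windows of Mbd1 and Mbd2 hold one was not examined.

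For Dnmt3a the windows before the first and the last of 3 listed starts are shown, since the array probe set carries no information here on which start its signal came from. These starts lie 84764 bases apart. CpG pairs are in capitals.
Dnmt3a, first start, chr12:3806730-3806979, plus strand: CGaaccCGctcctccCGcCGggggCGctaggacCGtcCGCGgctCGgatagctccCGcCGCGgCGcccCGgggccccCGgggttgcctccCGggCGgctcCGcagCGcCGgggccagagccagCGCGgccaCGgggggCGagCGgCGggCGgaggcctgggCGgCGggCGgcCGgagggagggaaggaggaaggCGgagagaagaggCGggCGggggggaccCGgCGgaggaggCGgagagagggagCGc
Dnmt3a, last start, chr12:3891494-3891743, plus strand: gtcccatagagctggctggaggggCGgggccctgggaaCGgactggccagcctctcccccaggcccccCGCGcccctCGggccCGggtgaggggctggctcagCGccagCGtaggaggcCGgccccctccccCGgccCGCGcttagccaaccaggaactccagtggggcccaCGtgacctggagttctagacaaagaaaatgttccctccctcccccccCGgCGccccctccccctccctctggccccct
The first window holds 38 CpG pairs and the last 15, against a median of 6 over all windows in the table. A CpG count says nothing about whether the pairs are methylated in these cells, which was not measured.

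None of the 3 maintenance genes differed between null and wild-type cells beyond the spread between arrays of a line. Dnmt1, the maintenance methyltransferase, had the smallest range of the 7 genes tested, 0.25 on the log2 scale. Its brighter probe set read 455 and 521 in null line 1, 438.4 and 455.9 in null line 2, and 442.6 and 464.9 in wild-type cells. All arrays but the second of line 1 fell within a narrow band, and null and wild-type arrays overlapped. The log2 difference of the null average from wild type was 0.04 ± 0.11 (SE, limma adjusted p = 0.92), with a 95% interval of 0.850-fold to 1.24-fold.

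Uhrf1 encodes the protein that recognises hemimethylated CpG at the replication fork and recruits Dnmt1. It read 310 and 451 in null line 1, 393.1 and 293.9 in null line 2, and 340.1 and 399.4 in wild-type cells. The null arrays lay on both sides of the wild-type arrays, and the arrays of line 1 were further apart than those of the other lines. The log2 difference was -0.05 ± 0.20 (SE, limma adjusted p = 0.953), and the interval ran from 0.687-fold to 1.36-fold.

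Hells encodes an SNF2-family remodeller needed for normal DNA methylation, above all at repeats. Its signal was 340.4 and 326.8 in null line 1, 362.1 and 422.6 in null line 2, and 284 and 360.5 in wild-type cells. Both arrays of line 2 lay above both wild-type arrays, whereas those of line 1 lay between them. The null average differed from wild type by 0.17 ± 0.14 on the log2 scale (SE, limma adjusted p = 0.649), an interval of 0.887-fold to 1.43-fold. Without the first wild-type array that value was 0.003, and without the second it was 0.34.

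Dnmt3a, a de novo methyltransferase that works with Dnmt3b in the embryo, showed the widest range of these genes. Its brighter probe set read 121.3 and 96.4 in null line 1, 164.8 and 139.5 in null line 2, and 90.8 and 94.1 in wild-type cells. All 4 null arrays lay above both wild-type arrays, by little in line 1 and by more in line 2. Dnmt3a averaged 130.5 ± 28.9 in the null arrays (SD, n = 4) and 92.45 ± 2.33 in the wild-type arrays (SD, n = 2). The null average exceeded wild type by 0.46 ± 0.14 on the log2 scale, 1.38-fold with an interval of 1.08-fold to 1.75-fold. That interval leaves out 1, though it holds no spread between lines. The difference did not pass after adjustment over all probe sets (limma adjusted p = 0.278, unadjusted p = 0.0165). Over the alternatives tried, the adjusted p lay between 0.158 and 0.695. The unadjusted p was 0.056 with the null arrays as 1 group, 0.0812 without the first wild-type array and 0.0592 without the second. Against wild type the difference was 0.22 ± 0.16 in line 1 (SE, limma adjusted p = 0.696) and 0.70 ± 0.16 in line 2 (adjusted p = 0.171). The line 1 value was 0.06 without its first array and 0.38 without its second. The dimmer probe set of Dnmt3a read between 0.4 and 3 on all 6 arrays, above background on none, and cannot check the first.

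**Figure D1:**
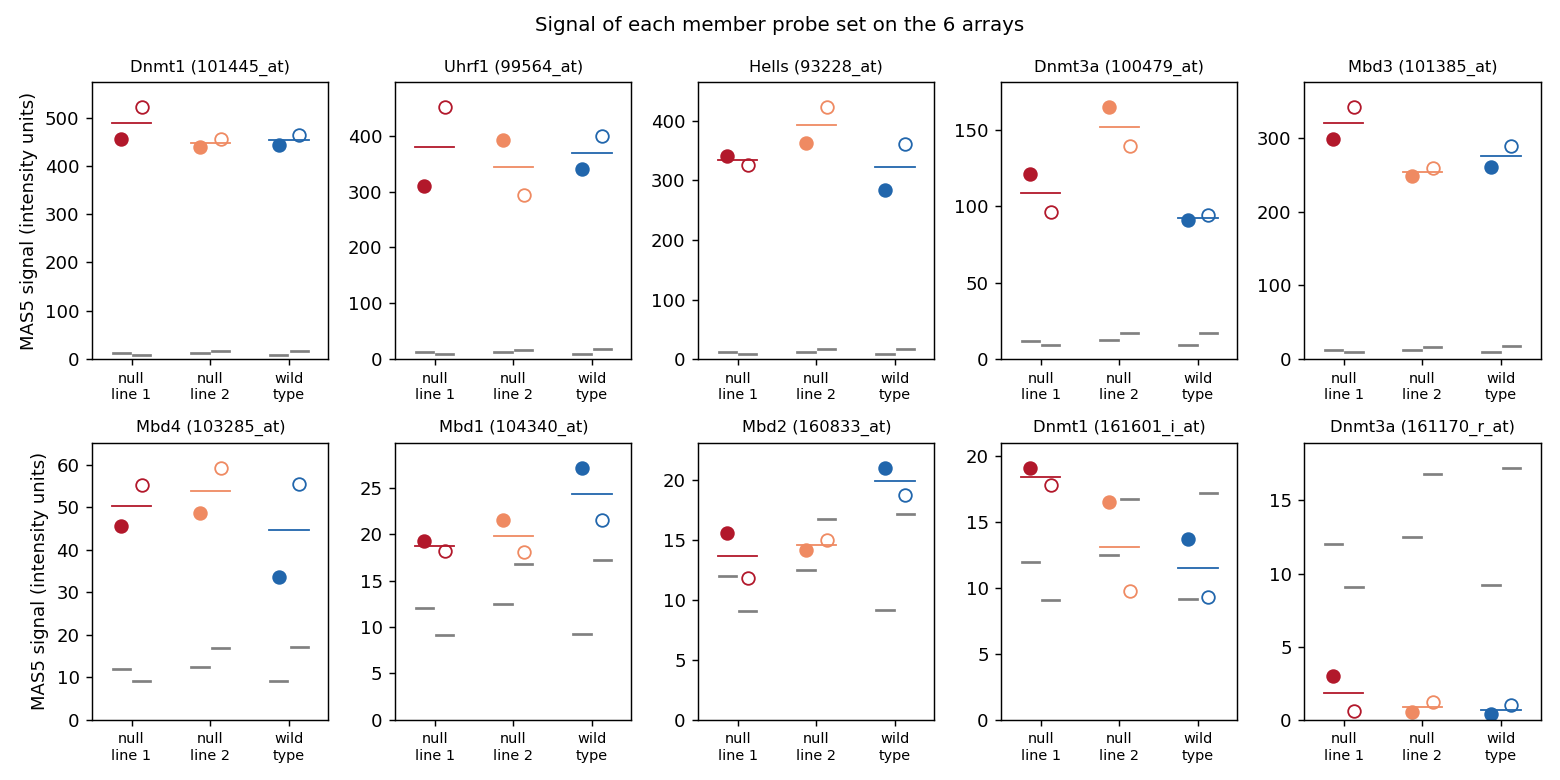
Deposited signal in intensity units (y axis, from 0) of the 10 probe sets, 1 panel each, for null line 1, null line 2 and wild type (x axis). Filled points are replicate 1 and open points replicate 2, coloured lines the mean of a line, and grey ticks the highest background control of that array. The brighter probe set of Dnmt3a has all 4 null arrays above both wild-type arrays and Mbd2 all 4 below them.

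The methyl-CpG binding genes spanned a wide range of brightness on the array. Levels of different genes are not compared, because signals of different probe sets share no scale. Mbd3 encodes a subunit of the NuRD corepressor complex that, in mammals, has lost most of its affinity for methylated CpG. It read 298.9 and 342 in null line 1, 248.6 and 259.6 in null line 2, and 261.1 and 290.3 in wild-type cells. The null lines lay on opposite sides of wild type, line 1 above both wild-type arrays and line 2 below both, where its higher array read 259.6 and the lower wild-type array 261.1. Opposite sides without overlap were found in 1 of the 7 genes tested, Mbd3, and in 2.75% of all probe sets. The null average differed from wild type by only 0.05 ± 0.12 on the log2 scale (SE, limma adjusted p = 0.901).

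Mbd4 is a thymine glycosylase that repairs the mismatch left when a methylated cytosine deaminates. It read 45.6 and 55.2 in null line 1, 48.6 and 59.2 in null line 2, and 33.7 and 55.6 in wild-type cells. In every line the second array read higher than the first, and the wild-type arrays enclosed 3 of the 4 null arrays. The null average differed by 0.25 ± 0.22 on the log2 scale (SE, limma adjusted p = 0.676). That value was -0.10 without the first wild-type array and 0.59 without the second.

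Mbd1, a transcriptional repressor that binds methylated promoters, and Mbd2, a methyl-CpG reader that brings NuRD to them, were dim. Mbd1 read 19.3 and 18.2 in null line 1, 21.5 and 18.1 in null line 2, and 27.1 and 21.5 in wild-type cells. The highest null array equalled the lower wild-type array, and all 6 arrays were above background. The log2 difference was -0.30 ± 0.14 (SE, limma adjusted p = 0.44). It was -0.14 without the first wild-type array and -0.45 without the second. With a mean of 20.95 over all arrays, Mbd1 stood just above the filter on dim probe sets, at 20.9.

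Mbd2, with a mean of 16.1, did not pass that filter. It read 15.6 and 11.8 in null line 1, 14.2 and 15 in null line 2, and 21 and 18.8 in wild-type cells. All 4 null arrays lay below both wild-type arrays, a pattern found in 10.4% of the 12422 probe sets when none is filtered out. Of the null arrays, 3 of 4 were above background, and both wild-type arrays were. In the fit without the filter its log2 difference was -0.43 ± 0.15 (SE, limma adjusted p = 0.539, unadjusted p = 0.034). In that fit 0.0644% of all probe sets passed after adjustment and 8.55% had an unadjusted p under 0.05. This close to background, the pseudocount of 2.4 added to each signal is a sizeable part of the value, so the size of the difference is uncertain.

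The dimmer probe set of Dnmt1 was also below the filter. It read 19.1 and 17.8 in null line 1, 16.5 and 9.8 in null line 2, and 13.7 and 9.3 in wild-type cells, and was above background on 4 of 6 arrays. Its log2 difference without the filter was 0.37 ± 0.24 (SE, limma adjusted p = 0.721), while the brighter one stood at 0.04 with the filter.

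In all, 7 of the 10 probe sets were tested with the rest of the array, 1 each for 7 genes. In the null average none of the 7 passed adjusted p 0.05 with limma, where 34 of the 7453 probe sets tested (0.456%) did. At an unadjusted p under 0.05 there was 1 of the 7, Dnmt3a, against 12.7% of all probe sets. Dnmt3a was also the 1 of the 7 with all null arrays above wild type, as in 11% of all probe sets, and none had all null arrays below, as in 12%. The median log2 difference of the 7 was 0.05 and that of all probe sets -0.01. The median size of the difference, sign aside, was 0.17 for the 7 and 0.15 for all probe sets. Set in order among all probe sets by its difference, Dnmt3a lay at the 97.0th percentile, Mbd4 at the 88.7th and Mbd1 at the 13.1th, and the others between the 44.0th and the 81.7th.

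**Figure D2:**
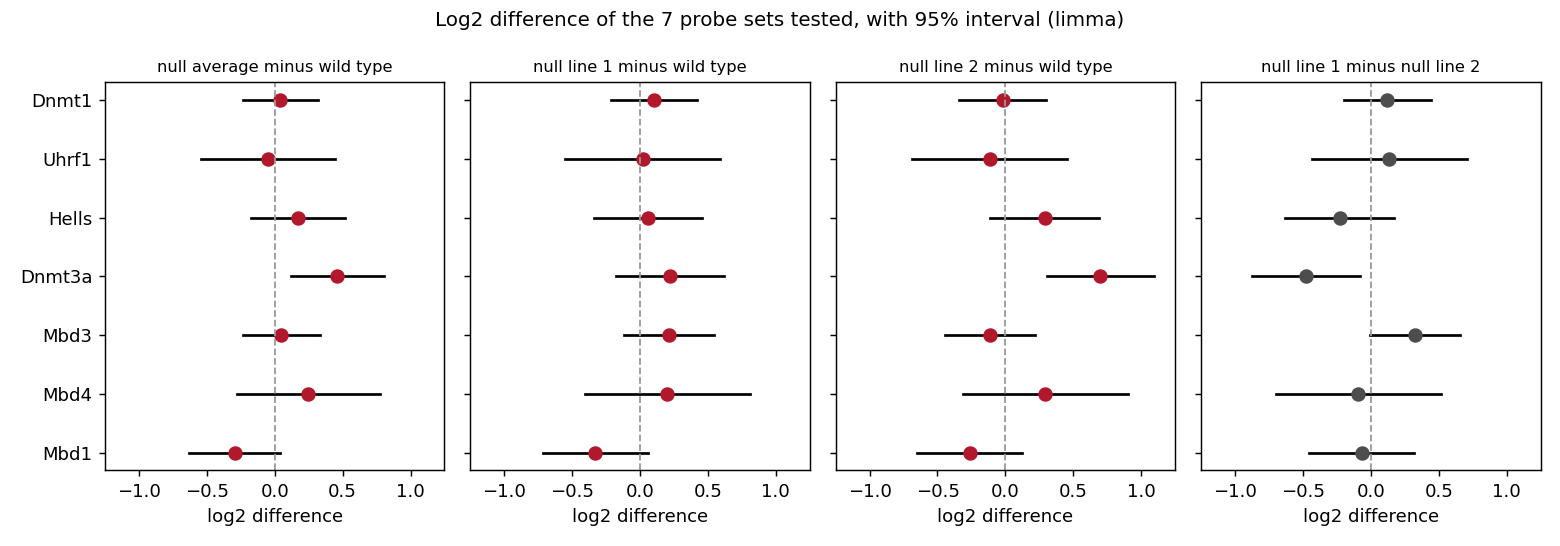
Log2 difference (x axis) of the 7 probe sets tested, 1 row per gene, in 4 panels: the null average and each null line against wild type, and line 1 minus line 2. Points are limma estimates and bars 95% intervals, unadjusted for the number of probe sets. The bar of Dnmt3a leaves out 0 for the null average, for line 2 and between the null lines, where the values are 0.46, 0.70 and -0.48.

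Each null line was also set against wild type, and the lines against each other. Both comparisons with wild type use the same 2 wild-type arrays. In line 1 none of the 7 passed with limma (0.134% of all probe sets did), and none had an unadjusted p under 0.05 (9.5%). Dnmt3a and Mbd3 had both line 1 arrays above both wild-type arrays, 2 of 7 where 18.9% of all probe sets did, and Mbd1 both below, 1 of 7 against 20.6%. In line 2 none passed (0.322%), and Dnmt3a alone had an unadjusted p under 0.05 (14.1%). Dnmt3a and Hells had both line 2 arrays above wild type, 2 of 7 against 23.6%, and Mbd3 both below, 1 of 7 against 25.2%. These shares are near those of the array as a whole.

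Between line 1 and line 2 none of the 7 passed (0.0268% of all probe sets did), and Dnmt3a alone had an unadjusted p under 0.05 (7.54%). Dnmt3a averaged 108.8 ± 17.6 in line 1 and 152.2 ± 17.9 in line 2 (SD, n = 2 each), a log2 difference of -0.48 ± 0.16 (SE, limma adjusted p = 0.628). The arrays did not overlap. The difference was -0.32 without the second array of line 1 (limma unadjusted p = 0.118) and -0.36 without the first array of line 2 (limma unadjusted p = 0.135). Mbd3 averaged 320.4 ± 30.5 in line 1 and 254.1 ± 7.78 in line 2 (SD, n = 2 each), a difference of 0.33 ± 0.14 (limma adjusted p = 0.628), again without overlap. Hells had both line 1 arrays below both line 2 arrays, with a difference of -0.23 ± 0.16 (adjusted p = 0.732). Line 1 was above line 2 without overlap for 1 of the 7, against 18.9% of all probe sets, and below for 2 of the 7, against 20.2%. For Dnmt1, Uhrf1, Mbd4 and Mbd1 the lines overlapped.

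By line mean, the order of the levels was line 2, line 1, wild type for Dnmt3a, Hells and Mbd4, and line 1, wild type, line 2 for Dnmt1, Uhrf1 and Mbd3. It was wild type, line 2, line 1 for Mbd1 and for Mbd2. Neighbours in these orders overlapped on the arrays except line 2 and line 1 for Dnmt3a and Hells, line 1 and wild type for Dnmt3a and Mbd3, wild type and line 2 for Mbd3 and Mbd2. None of these steps passed adjustment.

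Profiles were also compared for Dnmt3a, Mbd4 and Uhrf1. These 3 had the widest log2 range (0.84, 0.77 and 0.61) among the genes above background on all 6 arrays, which leaves out Mbd2. For each, the 3 genes with the smallest root mean square difference of centred log2 signals over the 6 arrays were taken from 5653 genes. For Dnmt3a these were Elavl2, an RNA-binding protein of neurons, Asf1b, a histone chaperone of dividing cells, and Preb, at 0.097 to 0.106, where the median gene was at 0.359. Asf1b read between 60.3 and 84.3 in the null arrays and 54.7 and 55.5 in the wild-type arrays, lowest of the null arrays where Dnmt3a was also lowest. For Mbd4 they were Gmfb, Penk and Inpp5b, at 0.064 to 0.099, and for Uhrf1 Sh3gl3, Pkig and Urm1, at 0.061 to 0.072. With 6 arrays and so many genes, some close profiles are found for any gene.

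The partners of these proteins were read from lists of genes, each counted by its brightest probe set listed with that gene alone. The lists were chosen with earlier results of these data known. In the null average, no gene of the 6 pathway lists passed with limma. Of 25 partners of maintenance and de novo methylation, 19 are on the array and 18 were tested, of which 14 had positive differences, with a median of 0.12. Dppa3, which protects the maternal genome from demethylation in the zygote and restrains Uhrf1, averaged 372.8 ± 50.6 in the null arrays (SD, n = 4) and 228.8 ± 20.7 in the wild-type arrays (SD, n = 2). Its log2 difference was 0.69 ± 0.16 (SE, limma adjusted p = 0.186). All null arrays lay above both wild-type arrays, as in 11% of all probe sets. Cdca7, which activates Hells as a remodeller, averaged 449.6 in the null arrays and 353.1 in the wild-type arrays (0.35, limma adjusted p = 0.285). The heterochromatin protein gene Cbx1 averaged 141.0 in the null arrays and 106.9 in the wild-type arrays (0.39, adjusted p = 0.479).

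In the list of the NuRD and Sin3 corepressors, through which Mbd2 and Mbd3 act, 12 genes were tested. Of these, 5 had positive and 7 negative differences, with a median of -0.02. Sall4, counted among them, is a transcription factor and not a subunit. None of the 12 had all null arrays on one side of wild type. Of all probe sets, 11% had all null arrays above and 12% all below. The histone deacetylase gene Hdac1 was at 0.21, the histone chaperone gene Rbbp4 at -0.11 and Sap30, a Sin3 subunit, at 0.15 (limma adjusted p = 0.512, 0.714 and 0.784). Of the 3 other methyl-CpG readers tested, Mbd6 averaged 87.4 in the null arrays and 117.4 in the wild-type arrays (-0.42 ± 0.13, SE, limma adjusted p = 0.278). Its null arrays all lay below both wild-type arrays, as in 12% of all probe sets. Setdb1, a histone H3 lysine 9 methyltransferase that partners with Mbd1, was at 0.34 and Baz2a, a subunit of a nucleolar silencing complex, at 0.02 (limma adjusted p = 0.588 and 0.971).

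In the list of cytosine demethylation and base excision repair, 13 genes were tested. Of these, 4 had positive and 9 negative differences, with a median of -0.05. Fadd, at -0.05, is counted among them but belongs to neither process. Gadd45b, a stress-induced gene linked to demethylation, averaged 108.3 ± 3.72 in the null arrays (SD, n = 4) and 189.0 ± 12.4 in the wild-type arrays (SD, n = 2). Its log2 difference of -0.79 ± 0.11 came nearest to the threshold of all genes in these 6 lists (SE, limma adjusted p = 0.0594). Gadd45g, of the same family, averaged 45.8 in the null arrays and 63.0 in the wild-type arrays (-0.44, limma adjusted p = 0.25). Apex1, the abasic site endonuclease, averaged 705.8 in the null arrays and 625.2 in the wild-type arrays (0.17, adjusted p = 0.569). Of 10 genes of methyl donor synthesis tested, 8 had positive differences and the median was 0.12. Shmt1, which moves 1-carbon units from serine to folate, averaged 281.8 ± 7.78 in the null arrays and 199.0 ± 0.424 in the wild-type arrays (0.50, limma adjusted p = 0.142). Gldc, of the glycine cleavage system, was at 0.53 and Mat2b, a regulator of S-adenosylmethionine synthesis, at 0.33 (adjusted p = 0.186 and 0.329).

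The DNA replication genes stand beside Dnmt1, Uhrf1 and Hells because the maintenance machinery is made in S phase. Of 21 tested, 20 had positive differences, with a median of 0.17, and 9 had all null arrays above both wild-type arrays, where 11% of all probe sets did. This list too was chosen with earlier results known, and its genes share the same arrays. They are not independent observations, and whether the list differs from the whole array was not tested. Rrm1, a subunit of ribonucleotide reductase, averaged 315.4 in the null arrays and 237.7 in the wild-type arrays (0.40, limma adjusted p = 0.27). Rpa1, a single-strand binding protein, was at 0.36 and Mcm7, of the replicative helicase, at 0.29 (adjusted p = 0.274 and 0.355). The summed signal of the list was between 6951.1 and 7528.6 on the null arrays and between 6344.3 and 6428.8 on the wild-type arrays. Dnmt1 and Uhrf1, at 0.04 and -0.05, lay below the median of this list and Hells, at 0.17, next to it.

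**Figure D3:**
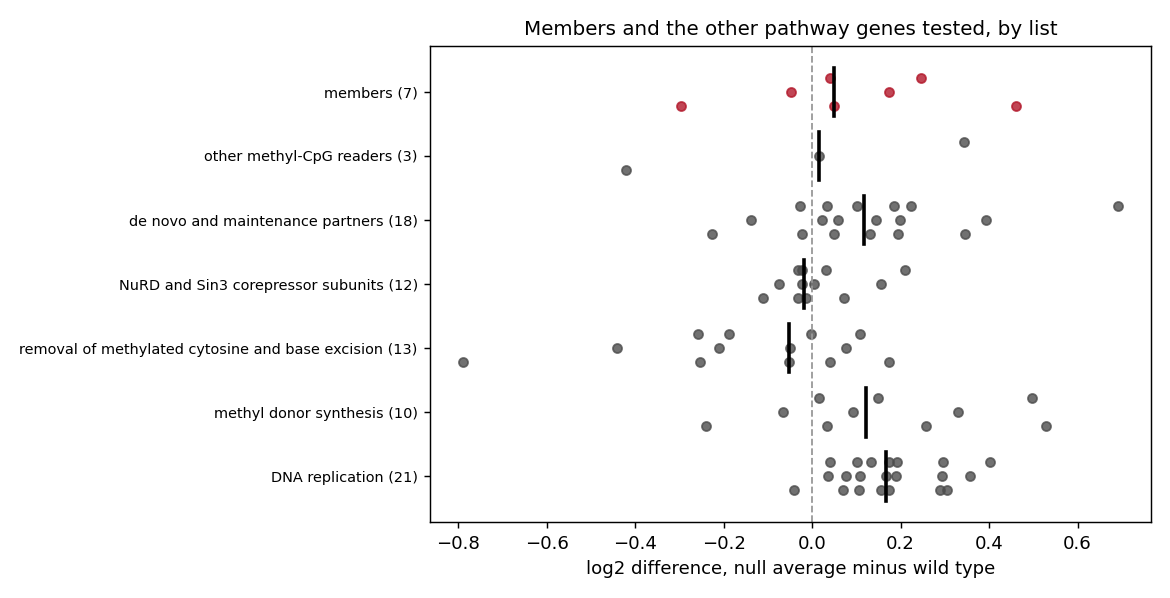
Log2 difference of the null average from wild type (x axis) for the 7 genes tested (red, called members) and the genes of 6 pathway lists (grey), 1 point per gene, with the number tested in brackets. Vertical bars are medians, from -0.05 for demethylation and base excision to 0.17 for DNA replication. No point passed the threshold.

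Markers of other cell types were read beside these values, and none of them passed with limma. Signals were summed per list, so the brightest probe set weighs most in each sum, and the counts of genes are given with it. Fibroblast markers, of cells that serve as feeders, summed to between 857.1 and 988.0 on the null arrays and between 1095.4 and 1141.1 on the wild-type arrays, with 5 of 12 above background on all arrays. Of these 5, 2 had positive and 3 negative differences, and most of the gap lay in Acta2, a smooth muscle actin, at 345.2 in the null arrays and 560.6 in the wild-type arrays. The collagen gene Col1a1 averaged 159.7 in the null arrays and 158.4 in the wild-type arrays.

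Trophoblast markers summed to between 1289.3 and 1603.9 on the null arrays and between 1973.4 and 2017.3 on the wild-type arrays, and the gap lay almost wholly in the keratin gene Krt8, at 909.2 in the null arrays and 1483.2 in the wild-type arrays (limma adjusted p = 0.0898). Of 5 tested, 2 had positive and 3 negative differences, and Cdx2 and Elf5 were above background on no array. Extraembryonic endoderm markers summed to between 933.8 and 1016.4 on the null arrays and between 1202.4 and 1411.1 on the wild-type arrays, with 8 of 10 above background throughout. Of 8 tested, 6 had negative differences, led in signal by Sparc and Col4a1. All 5 mesoderm markers tested had negative differences, with a median of -0.39, and the list summed to between 237.1 and 269.4 on the null arrays and between 348.8 and 382.0 on the wild-type arrays. Markers of an epiblast-like state overlapped, between 176.2 and 263.9 on the null arrays and between 244.2 and 244.4 on the wild-type arrays.

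Of the 13 embryonic stem cell markers, Fbxo15 rose by 1.05 on the log2 scale (limma adjusted p = 0.0449), 1 of 13 where 0.456% of all probe sets passed. It did not pass in line 1 or line 2 taken alone (limma adjusted p = 0.103 and 0.0775). These markers too were chosen with earlier results of these data known. Of the other markers in this list, 8 had positive and 4 negative differences, and none passed. Fewer cells of a type and less RNA per cell cannot be told apart in such RNA, and the part of these markers in the values of Dnmt3a, Mbd1 or Mbd2 was not tested.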

How the data were processed

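Per the submitters' processing notes, the authors made 1 intensity per probe set and array with MAS5; the sources used here name no version. The mean intensity of every deposited array, with 2% trimmed at each end, was 100.05 or 100.06, so a common scaling had been applied and was kept. Names came from the platform annotation, updated by gene ID through RefSeq (GRCm38.p6) for 10817 of 10833 probe sets that list a single gene. The 66 control probe sets were left out.

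Deposited values were tested as log2(intensity + 2.4), the pseudocount being the 10th percentile of all values. This understates changes of dim genes. Probe sets with a mean at or above the 40th percentile (20.9) were tested, 7453 of them, in one fit with a mean per line and no batch term (limma 3.58.1, R 4.3.3, lmFit and eBayes), adjusted by the Benjamini-Hochberg method. An exact two-sided permutation p of 4 null against 2 wild-type arrays is 0.0667 or more, so each p rests on the model. The fit was tested on simulated data. All probe sets of the 9 genes are named, and of each list up to 3 genes with the smallest p. The genes and lists were chosen with earlier results of these data known. Alternatives were other pseudocounts, filters and scalings, a spread that follows the signal, the experiment number as a block, the null arrays as 1 group, and each array left out. Plots were made in Python 3.11.15 (matplotlib 3.10.9).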

Additional observations from a re-analysis of the deposited data

Results flagged for a closer look

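Mbd3 was the 1 gene of the 7 tested whose null lines lay on opposite sides of wild type without overlap, line 1 above and line 2 below both wild-type arrays, as in 2.75% of all probe sets. The log2 difference of line 1 from line 2 was 0.329, and the test of that difference did not pass (limma adjusted p = 0.628, unadjusted p = 0.0512). The log2 difference from wild type was 0.21 in line 1 and -0.115 in line 2, each with an SE of 0.14, and the same wild-type arrays stand in both. Leaving out 1 array at a time, the value ran from 0.118 to 0.31 in line 1 and from -0.191 to -0.039 in line 2. The cause was not tested.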

How the results depend on the processing

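None of the genes passed in any of the 4 comparisons under the 14 or 15 alternatives tried, and leaving out each array in turn left the count at 0 to 0. The lowest adjusted p was 0.0811, for Dnmt3a in line 2 with the filter at the 60th percentile. Dnmt3a, Hells and Mbd1 kept their sign in the null average under every alternative that tested them, Dnmt3a between 0.38 and 0.54. Dnmt1, Mbd3 and Mbd4 changed sign in 1 alternative each and Uhrf1 in 3 of 15, all by leaving out an array. With the replicate block the count was 0 and Dnmt3a had a limma adjusted p of 0.268. The main fit did not take the experiment numbers as pairs, by design. Deviations of arrays with the same number correlated between lines at r of 0.054 to 0.095 over 7453 probe sets. So low a value over all probe sets does not show that single genes lack a shared deviation. Over all probe sets the null average had 34 calls, against 7 without either wild-type array, 8 without the filter, 14 with the block and 101 with a spread that follows the signal. Signal over background limits Mbd1, Mbd2 and both second probe sets.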
